A study of Homo sapiens with 9 samples.

Results

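TSPAN8, LGR5 and PTPRR are neighbouring genes on the long arm of chromosome 12 (12q21), and H3K9me3 domains over them were followed across a window of 2.5 Mb (GRCh38, chr12:70000001-72500000). These are 3 of 20037 protein-coding genes in the gene table. They were picked by name from earlier results of the same libraries: TSPAN8 was covered with LmnB1 and not with mCherry, and both other genes are its nearest protein-coding neighbours. The covered percent by construct is therefore given as a description, with no test. TSPAN8 encodes a tetraspanin, a membrane protein that gathers other receptors and adhesion proteins into patches and is made in the epithelium of the gut. LGR5 encodes a receptor for R-spondins, secreted proteins that strengthen Wnt signalling, and marks stem cells of the intestine and hair follicle. PTPRR encodes a receptor-type tyrosine phosphatase that binds MAP kinases through a kinase interaction motif.

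H3K9me3 marks heterochromatin, is bound by HP1 proteins, and often lies in long domains at the nuclear periphery, where lamin B1 forms filaments under the inner nuclear membrane. The mark was profiled by Cut&Run, in which a nuclease tethered to an antibody releases the DNA around it. All groups are hTERT RPE-1, a telomerase-immortalised line from human retinal pigment epithelium, and all were given doxycycline at 0.05 ug/mL for 24 hours. The LmnB1 group overexpressed mCherry-LmnB1 and held 4 libraries, replicates 1 and 2 of the clonal lines LmnB1_16 and LmnB1_6. The mCherry group overexpressed mCherry alone and held 4 libraries, replicates 1 and 2 of mCherry_3 and mCherry_4. Each line is 1 clone, so a difference of construct rests on 2 clones against 2, and no label names the promoter that drives either construct. No expression was measured, so the labelled cell type could not be checked against its markers.

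The libraries held 5366 to 11322 domains each, and their depth as a ratio to the common input was 0.880 to 1.01 with LmnB1 and 0.421 to 0.859 with mCherry, so depth and construct cannot be told apart. Over the 229 domains that both mCherry_3 replicates list at the same position, a chi-square test of their counts found no difference larger than sampling noise (p = 0.197), although their lists differ. Chi-square per degree of freedom was 1.08 there, against 1.1 in LmnB1_16, 1.73 in LmnB1_6 and 1.67 in mCherry_4. Such domains were picked for matching positions and do not stand for the whole lists. Values are therefore given by library, and counting the mCherry_3 pair once left the differences over TSPAN8, LGR5 and PTPRR as they are, since all mCherry values there were 0. A domain is listed only above a log2 enrichment over input of about 0.60, so 0 means that no domain was listed, not that no reads lay there. A higher share of cells carrying the mark and more of the mark in each cell cannot be told apart.

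The start regions of TSPAN8 and PTPRR are shown because TSPAN8 starts inside a domain in every LmnB1 library, while the PTPRR starts in the promoter table lie in none. The sequences are from RefSeq on GRCh38.p14, run from 250 bases before to 50 bases after an annotated first base on the minus strand, and 2 of the 3 genes matched an entry. In the TSPAN8 region chr12:71157950-71158249 and the PTPRR region chr12:70788871-70789170, capitals mark CG dinucleotides. In the second TSPAN8 region, chr12:71157760-71158059, which overlaps the first, capitals mark 3 copies of a repeat that a search of the sequence found.
TSPAN8 outer start: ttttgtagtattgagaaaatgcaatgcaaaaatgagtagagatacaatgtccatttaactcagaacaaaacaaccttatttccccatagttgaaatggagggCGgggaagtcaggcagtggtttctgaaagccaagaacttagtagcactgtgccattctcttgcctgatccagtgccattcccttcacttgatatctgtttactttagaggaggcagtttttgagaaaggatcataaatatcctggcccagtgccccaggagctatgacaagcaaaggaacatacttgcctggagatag
TSPAN8 inner start: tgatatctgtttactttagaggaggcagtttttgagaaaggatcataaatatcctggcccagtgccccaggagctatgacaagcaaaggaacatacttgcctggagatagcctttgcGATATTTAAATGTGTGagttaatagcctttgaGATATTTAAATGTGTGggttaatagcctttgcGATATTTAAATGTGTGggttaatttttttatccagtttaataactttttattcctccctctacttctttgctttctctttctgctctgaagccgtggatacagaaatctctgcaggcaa
PTPRR inner start: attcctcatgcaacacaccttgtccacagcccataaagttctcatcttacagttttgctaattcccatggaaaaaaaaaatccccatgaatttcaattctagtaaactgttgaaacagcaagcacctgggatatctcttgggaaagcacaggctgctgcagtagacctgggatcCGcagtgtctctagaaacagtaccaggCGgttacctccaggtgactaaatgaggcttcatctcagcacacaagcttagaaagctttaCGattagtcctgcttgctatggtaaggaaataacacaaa
The TSPAN8 outer start region holds 1 CG and the inner 3, and the printed PTPRR region holds 3. The PTPRR regions not printed, chr12:70754559-70754858 and chr12:70754710-70755009, hold 2 and 1. The median over 22199 promoters of protein-coding genes was 21, with as few as 1 CG in 6.05% and as few as 3 in 14.5%. The repeat in the inner TSPAN8 region is GATATTTAAATGTGTG, and an exact repeat of at least 16 bases in 3 copies was found in 0.671% of those promoters. Both TSPAN8 start regions were covered over 100% in each LmnB1 library, against 0 in each mCherry library. All 3 PTPRR start regions in the table, which end at or below 70789170, were at 0 in all 8. They are inner starts: the first base of the PTPRR gene itself, 70920738 on the minus strand, lay inside a domain in both LmnB1_6 libraries and in none of the other 6.

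TSPAN8 (chr12:71125096-71157999, 32.9 kb) lay inside H3K9me3 domains in the LmnB1 libraries and in none of the mCherry libraries. Its body was covered over 100% in LmnB1_16 replicate 1, 82.1% in LmnB1_16 replicate 2 and 100% in both LmnB1_6 replicates, against 0 in mCherry_3 and mCherry_4. The groups did not overlap, and the uncovered part in LmnB1_16 replicate 2 was a gap of 5 kb inside the gene, from 71142001 to 71147000, plus its last bases at the lower end. Of 2304 genes tested with limma across all genes, 5 were called higher with LmnB1 (0.217%) and 2 lower (0.0868%), and the LmnB1 libraries stood entirely above the mCherry libraries in 2.69% and entirely below in 0.391%. Both counts of higher genes include TSPAN8, but that contrast chose it, so its place in them is no result.

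LGR5 (chr12:71439129-71586310, 147 kb) was at 0 in all 8 libraries, as were 15897 of all protein-coding genes. With a mean of 0 it was not tested. The domains over TSPAN8 stopped short of LGR5 in every LmnB1 library: they ended 72.1 and 71.1 kb before it in LmnB1_16 and 55.1 and 177 kb before it in LmnB1_6. In LmnB1_6 replicate 2 a separate domain of 61 kb followed, which ended 112 kb before LGR5. The nearest domain in any library was an 8 kb one in mCherry_3 replicate 1, which ended 26.1 kb before LGR5. The label of the region thus names a gene that no listed domain touches.

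PTPRR (chr12:70638073-70920738, 283 kb) was covered in the clone LmnB1_6 and in no other library. The covered percent was 22.2 and 38.1 in LmnB1_6 replicates 1 and 2, and 0 in LmnB1_16, mCherry_3 and mCherry_4. The LmnB1 mean of 15.1% ± 18.6 (SD, n = 4) therefore describes neither clone, and the groups overlap at 0. The covered bases were the part of PTPRR that faces TSPAN8 and holds the gene's first base, since the domains reached 67.7 and 108 kb into the gene from there. The inner PTPRR starts lay at least 23.8 kb outside them. Of all protein-coding genes, 82 (0.409%) were covered in both LmnB1_6 libraries and in no other. PTPRR was tested across all genes, having passed the filter through LmnB1_6 alone, and is not among the genes called. No conclusion is drawn from that outcome.

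**Figure D1:**
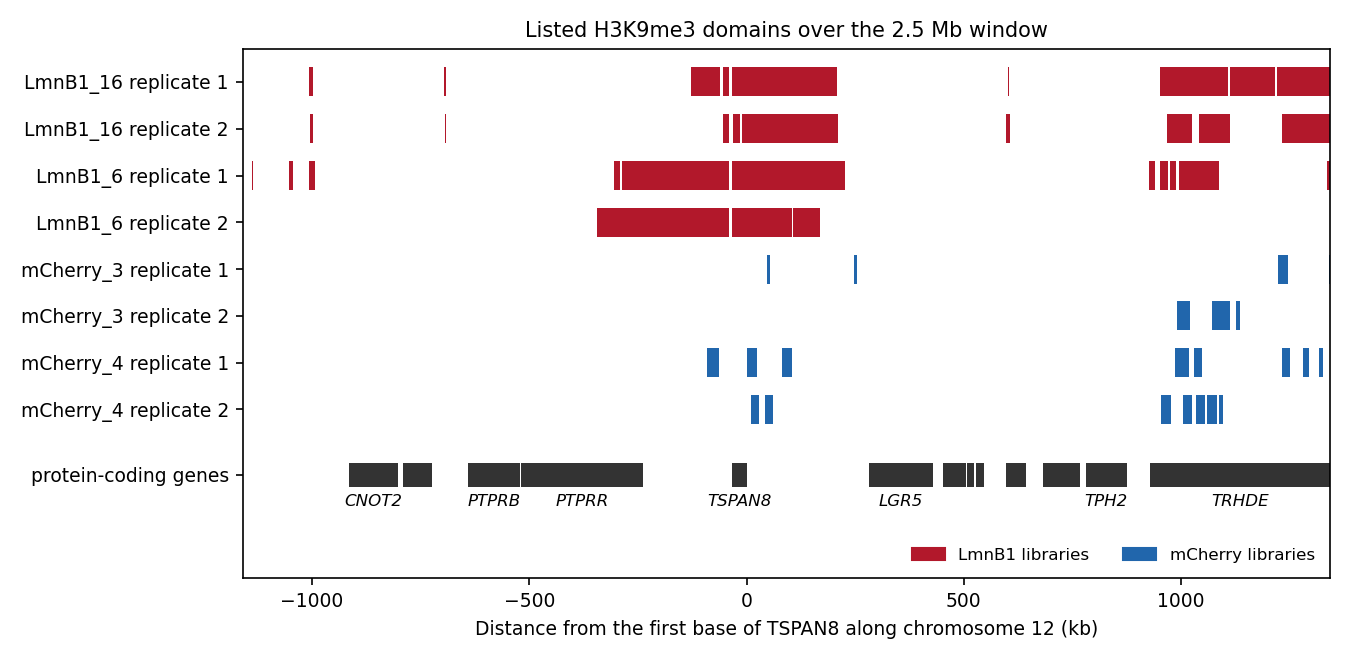
Listed H3K9me3 domains of each library (bars, red for LmnB1 and blue for mCherry) over the 2.5 Mb window, with protein-coding genes below. The x axis is the distance in kb from the first base of TSPAN8, and the LmnB1 bars over TSPAN8 end before LGR5 in all 4 libraries.

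Between TSPAN8 and LGR5, an interval of 281 kb, listed domains covered 209 and 210 kb in LmnB1_16 and 226 and 165 kb in LmnB1_6. The same interval held 15 and 0 kb in mCherry_3 and 47 and 36 kb in mCherry_4, so the lowest LmnB1 value lay above the highest mCherry value. Between PTPRR and TSPAN8, 204 kb long, the clones parted: LmnB1_6 had 198 kb covered in both replicates, while LmnB1_16 had 83.1 and 14.0 kb. There mCherry_4 replicate 1 had 29.0 kb, above LmnB1_16 replicate 2, and the other mCherry libraries had 0. LmnB1 and mCherry libraries were thus apart on the LGR5 side of TSPAN8 and overlapped on the PTPRR side. The overlap rests on the low LmnB1_16 replicate 2 value and on that single mCherry_4 domain, which lay at the lower limit of its list. Its log2 enrichment over input was 0.60 (SE 0.14, counting error only), and it ranked 8544 of 8579.

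**Figure D2:**
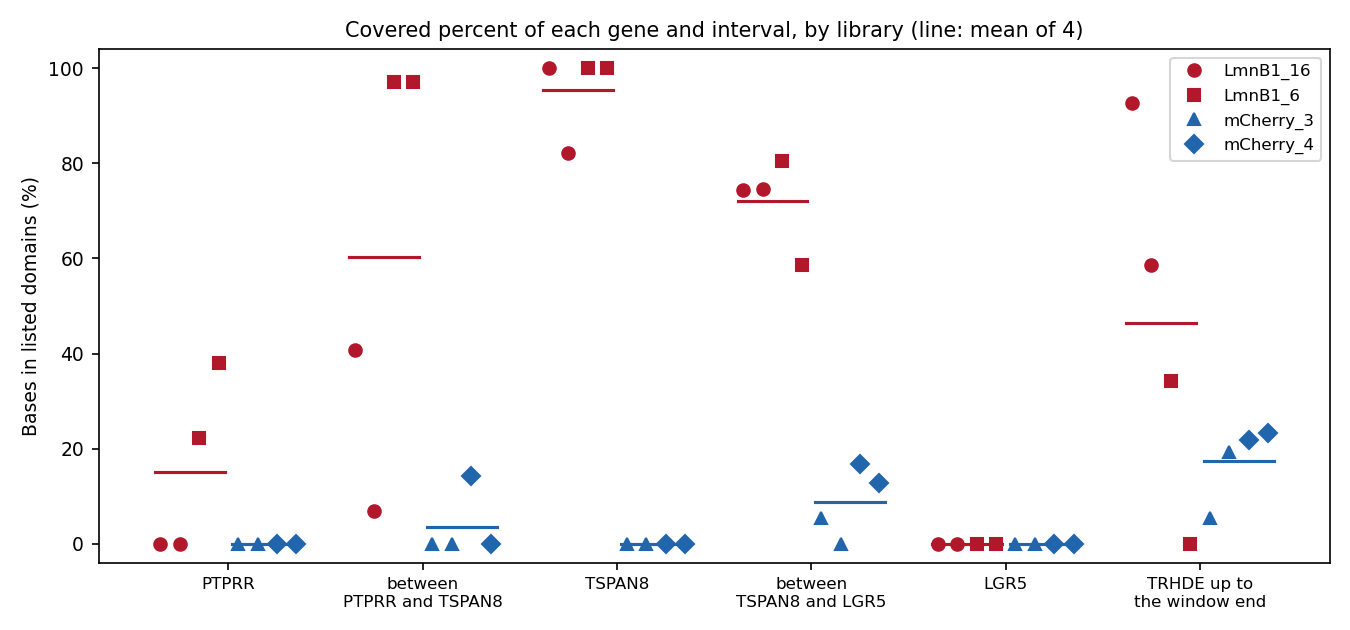
Percent of bases in listed domains for each gene and interval, with 1 point per library (circles LmnB1_16, squares LmnB1_6, triangles mCherry_3, diamonds mCherry_4) and a line at the mean of the 4 libraries of a construct. TSPAN8 is at 82.1 to 100% with LmnB1 and at 0 with mCherry, LGR5 is at 0 throughout, and PTPRR is above 0 in LmnB1_6 alone.

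Taken from the start of PTPRR to the end of LGR5 (948 kb), listed domains covered 325 and 251 kb in LmnB1_16 and 520 and 504 kb in LmnB1_6. They covered 15 and 0 kb in mCherry_3 and 76 and 36 kb in mCherry_4. Of the LmnB1 libraries, LmnB1_6 replicate 2 had the shortest list, at 357 Mb over the genome. The lists of mCherry_3 held 529 and 528 Mb, and those of mCherry_4 held 429 and 320 Mb. At equal covered length the difference over the whole window was 209 kb in place of 505. The part of list length in the values of this span was not tested. All 3 domains that LmnB1_6 replicate 2 listed in the 2.5 Mb window lay in this span. The span held 44.8 and 48.9% of the covered window bases in LmnB1_16, 75.1% in LmnB1_6 replicate 1 and 100% in LmnB1_6 replicate 2. In the mCherry libraries that share ran from 0 to 45.8%.

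The gap just below TSPAN8 was placed alike in every LmnB1 library. A domain ended at base 71118000 in all 4, and the next one began at 71124001 in 3 of them and at 71126001 in LmnB1_16 replicate 2. Domains fall on 1000 bp steps, so these positions are exact to 1 kb only, and the libraries share the input. The gap was 6 kb in 3 libraries and 8 kb in LmnB1_16 replicate 2, and in the former it stopped 1.09 kb before the lower end of TSPAN8. Starts and ends were matched within 5 kb, and these were the 2 borders that all 4 libraries shared. Within 1 kb only the end at 71118000 was shared by all. The outer borders varied more. The lowest start lay at 71031001 and 71104001 in LmnB1_16 and at 70853001 and 70813001 in LmnB1_6, so replicates differed by 73 kb in LmnB1_16 and by 40 kb in LmnB1_6. On the LGR5 side the last base was 71367000 and 71368000 in LmnB1_16, and 71384000 and 71327000 in LmnB1_6, a difference of 1 kb and of 57 kb.

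**Figure D3:**
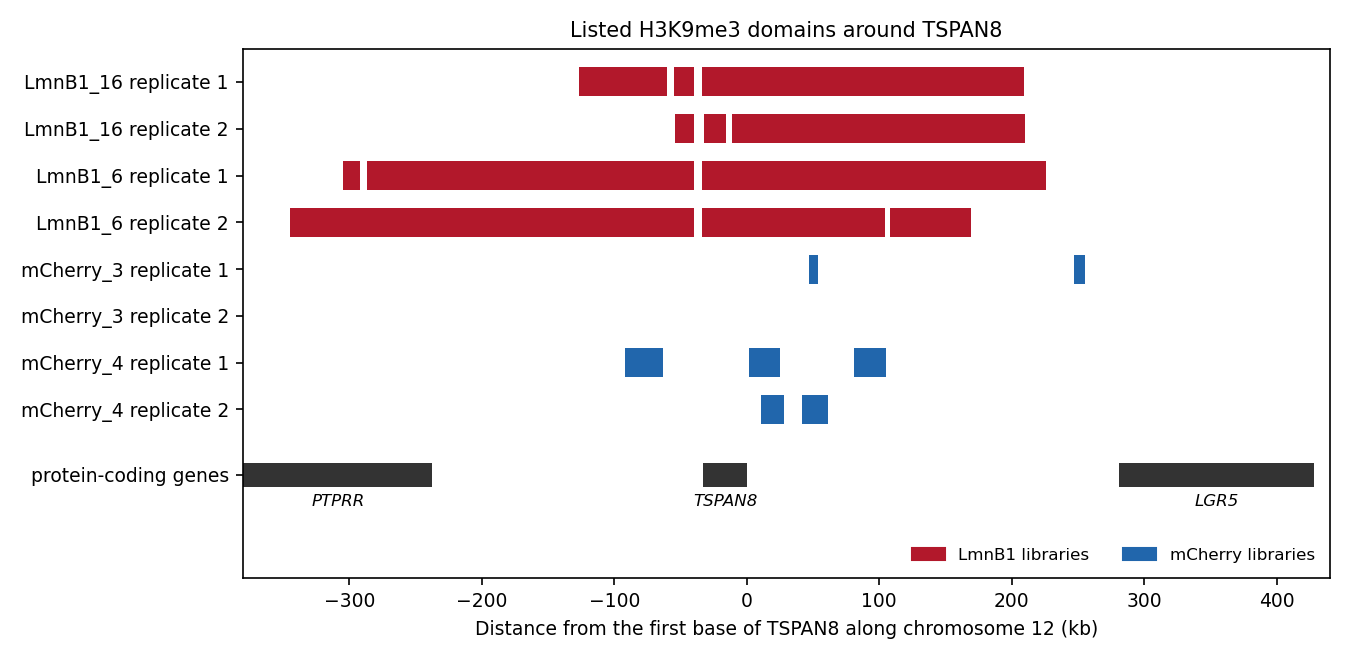
The same domains around the first base of TSPAN8 (x axis, kb along chromosome 12), 1 line per library, red for LmnB1 and blue for mCherry. The 4 LmnB1 lines share the gap just below TSPAN8, and the blue bars are short domains of 7 to 29 kb.

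All 4 LmnB1 libraries together covered 206 kb of this span, 36.5% of the 565 kb covered in any of them. The shared bases formed 4 runs: 71104001 to 71118000, 71126001 to 71142000, 71147001 to 71262000 and 71266001 to 71327000. Of these, 138 kb were in no mCherry list, and the longest such run, 61 kb, went from 71266001 to 71327000. Both LmnB1_6 replicates, and no other library, covered 178 kb, while 0 kb were covered by both LmnB1_16 replicates alone. The Jaccard index, shared bases over bases in either list, was 0.812 between the LmnB1_6 replicates and 0.767 between the LmnB1_16 replicates. Between the clones it ran from 0.375 to 0.625.

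The mCherry domains in this span were short and mostly lay where LmnB1 domains did. They numbered 2 in mCherry_3 replicate 1 (7 and 8 kb), 0 in mCherry_3 replicate 2, 3 in mCherry_4 replicate 1 (23, 24 and 29 kb) and 2 in mCherry_4 replicate 2 (17 and 19 kb). Together they covered 106 kb, of which 98 kb also lay in at least 1 LmnB1 list. The bases covered in all 4 LmnB1 libraries made up 64.2% of those in any mCherry list, and conversely 33.0% of the former were in an mCherry list. The exception was the 8 kb domain nearest to LGR5. No base was in more than 2 mCherry lists, and both mCherry_3 replicates shared none. The mCherry domain closest to TSPAN8 began at 71160001 in mCherry_4 replicate 1, about 2 kb beyond its first base.

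**Figure D4:**
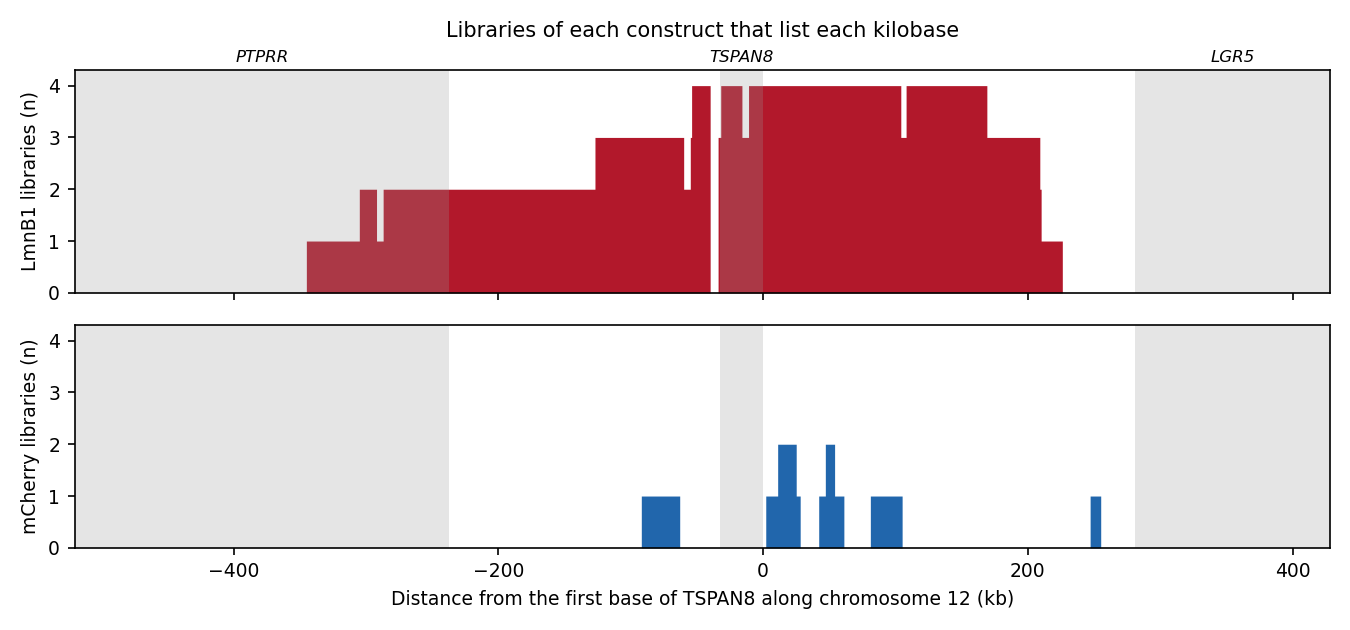
Number of LmnB1 libraries (red) and mCherry libraries (blue) that list each kb from PTPRR to LGR5, against the distance in kb from the first base of TSPAN8, with the 3 genes shaded. Counts of 4 with LmnB1 lie over TSPAN8, on its LGR5 side and in a run of 14 kb on its PTPRR side, and mCherry counts do not pass 2.

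Noncoding genes of the table lie in the same span. LOC105369832 (chr12:71277352-71315369), a long noncoding RNA gene between TSPAN8 and LGR5, was covered over 100% with LmnB1 and 0 with mCherry in each library. LOC105369831 (chr12:71216834-71220834) was at 100% in all 4 LmnB1 libraries, 54.2% in mCherry_4 replicate 2 and 0 in the other mCherry libraries. LOC124902961, which ends just beyond the shared border at 71118000, was at 93.0% in each LmnB1 library and 0 with mCherry. Those inside PTPRR and over LGR5 were at 0 in all 8.

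The clones also differed in how strongly the TSPAN8 domain was enriched within its own list, by the authors' log2 enrichment over input. In LmnB1_6 replicate 1 the domain was 260 kb long with 4959 H3K9me3 and 2264 input reads, at a log2 enrichment of 1.21 (SE 0.04, counting error only). It ranked 1456 of 8641 domains, and stood at percentile 97.9 among the 1422 domains of at least 100 kb in that list. In LmnB1_6 replicate 2 the domain of 138 kb had 1849 and 1153 reads, a log2 enrichment of 0.83 (SE 0.05) and percentile 95.2 among 1052 such domains. Both replicates of LmnB1_6 thus placed it among their most enriched long domains.

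In LmnB1_16 the same region was weak for its list. Replicate 1 gave a domain of 243 kb with 3326 and 2113 reads, at a log2 enrichment of 0.84 (SE 0.04), which was percentile 21.3 among 961 domains of at least 100 kb. Replicate 2 gave a domain of 221 kb with 3128 and 1942 reads, at 0.68 (SE 0.04) and percentile 8.53, and a second one of 16 kb at 0.62 (SE 0.16). Both values of replicate 2 lay close to the lowest value that any list holds, 0.60. Percentiles come from lists of different lengths and are no measure of change between libraries. With each list reduced to the covered length of the shortest, TSPAN8 stayed at 100% in both LmnB1_6 libraries and was at 0 in both LmnB1_16 libraries, a mean difference of 50 points in place of 95.5.

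**Figure D5:**
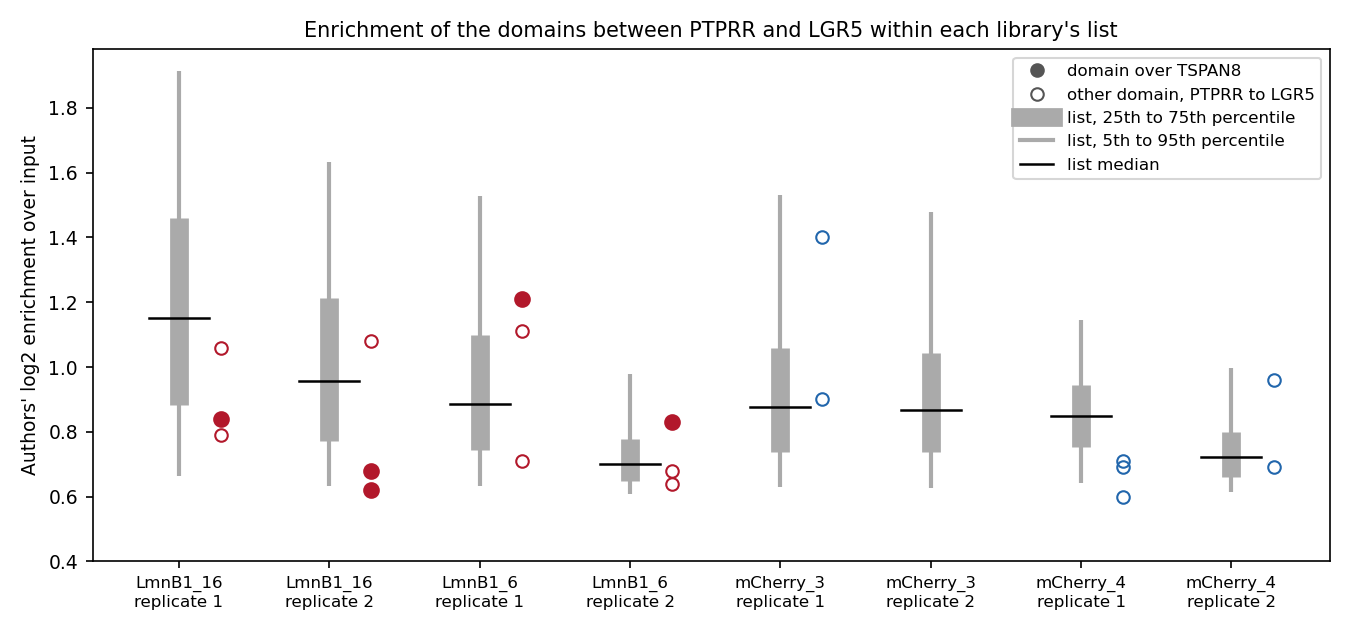
Authors' log2 enrichment over input (y axis) of the domains between PTPRR and LGR5 in each library, filled for domains over TSPAN8 and open for others, beside the whole list (thick grey bar 25th to 75th percentile, thin bar 5th to 95th, black line median). Filled points lie above the median in LmnB1_6 and below it in LmnB1_16, and mCherry_3 replicate 2 has no domain here.

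On the PTPRR side, the 247 kb domain of LmnB1_6 replicate 1 had a log2 enrichment of 1.11 (SE 0.04) and percentile 93.5 among long domains, and the 305 kb domain of replicate 2 had 0.64 (SE 0.04) and percentile 22.9. Pooled over all domains of the span, log2 enrichment was 0.84 and 0.70 in LmnB1_16 and 1.15 and 0.70 in LmnB1_6, against 1.14, 0.95, 0.93 and 0.71 over their whole lists. Of the LmnB1 libraries, LmnB1_6 replicate 1 alone had a higher value in the span than over its list. The mCherry values, from the few reads of short domains, were 1.14, 0.66 and 0.83 in the 3 libraries with any, against 0.89, 0.86 and 0.72 over their lists. The short mCherry domains had log2 enrichments from 0.60 to 1.40, the highest being the 7 kb domain of mCherry_3 replicate 1, with 108 H3K9me3 and 50 input reads (SE 0.25).

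The window holds 13 protein-coding genes, and 9 of them were at 0 in all 8 libraries, as were 15897 of all 20037. Among the 9 were PTPRB, CNOT2, KCNMB4 and the serotonin synthesis gene TPH2. Besides TSPAN8 and PTPRR, RAB21 and TRHDE were covered. TRHDE (chr12:72087266-72670758), which encodes an ectoenzyme that degrades thyrotropin-releasing hormone, carried domains with both constructs. Its covered percent was 93.2 and 59.4 in LmnB1_16, 35.4 and 0 in LmnB1_6, 13.7 in both mCherry_3 libraries, and 18.9 and 16.5 in mCherry_4. The groups overlap, and TRHDE was not called (31.3 points, SE 21.3, limma adjusted p = 0.911). LmnB1_6 replicate 2 was at 100% over TSPAN8 and at 0 over TRHDE, while all 4 mCherry libraries were at 0 over TSPAN8 and above 0 over TRHDE.

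Relatives of the 3 genes were read from lists chosen with earlier results of these data known. Over all 20037 protein-coding genes, 15897 were at 0 in all 8 libraries. Of the 2304 tested, 5 were called higher and 2 lower. With calls that rare and few genes tested per list, a count of 0 called was likely beforehand and is no result about a family. Of 32 other tetraspanin genes, 26 were at 0 in all 8 libraries, 2 passed the filter of a mean covered percent of at least 5, and 0 were called by limma. Those 2 were TSPAN15, at 36.2, 0, 30.1 and 0% in the LmnB1 libraries and 12.2% in mCherry_3 replicate 1 alone, and PRPH2, a retinal photoreceptor gene, at 10.6% ± 7.28 and 9.62% ± 11.5 (SD, n = 4). Of 20 genes of the LGR and R-spondin pathway, 15 were at 0, 4 were tested and 0 were called. OLFM4 and SMOC2, both known as markers of intestinal stem cells along with LGR5, were covered with either construct, at 100% and 94.6% ± 8.13 for OLFM4 and 92.1% ± 15.2 and 82.1% ± 19.3 for SMOC2 (LmnB1 and mCherry means, SD, n = 4). They do not stand for the list: ASCL2, LRIG1, TNFRSF19, EPHB2 and SOX9, also in it, did not pass the filter, and neither did LGR5.

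LGR6, a close relative of LGR5, was covered at 4.56% ± 5.36 with LmnB1 and 6.15% ± 7.17 with mCherry, and RSPO2, an R-spondin, at 4.07% ± 4.72 and 6.38% ± 7.44. Both were above 0 in LmnB1_16 and mCherry_3 and at 0 in LmnB1_6 and mCherry_4. Of 21 tyrosine phosphatase genes related to PTPRR, 14 were at 0, 4 were tested and 0 were called. PTPRT had 89.5% ± 12.6 and 86.5% ± 19.7, PTPRD 78.3% ± 29.6 and 84.5% ± 8.15, and PTPRN2 70.2% ± 9.21 and 55.7% ± 26.7. PTPRG was at 100% in LmnB1_16 and mCherry_3, 34.4 and 0% in LmnB1_6 and 0 in mCherry_4. The median difference, LmnB1 minus mCherry, was 7.24, 1.93 and 5.78 points over the tested genes of these lists and 3.73 over all 2304.

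Genes elsewhere with the pattern most like that of TSPAN8, by mean absolute difference in covered percent over the 8 libraries, were FOXA2 (2.24 points), CLVS2 (4.61), HSPB8 (4.67), CNBD1 (9.23) and KRT34 (13.1). In LmnB1_16 replicate 2, the library lowest for TSPAN8, FOXA2, HSPB8 and KRT34 were at 100% and CLVS2 at 94.8%. CNBD1 was at 78.2% there, its lowest LmnB1 value too, and unlike TSPAN8 it had 4.98 to 15.3% in the mCherry libraries. Among LmnB1 libraries, HSPB8, CLVS2 and KRT34 were lowest in LmnB1_6 replicate 2, at 80.6, 80.7 and 13.3%, where TSPAN8 was at 100%. For PTPRR the nearest were GYG2 (1.74 points), PIK3R6 (2.44), SLCO1C1 (2.88), C10orf67 (3.04) and PSG1 (3.23). GYG2, PIK3R6 and C10orf67 were above 0 in both LmnB1_6 libraries and at 0 in the other 6, like PTPRR, while PSG1 was above 0 in LmnB1_6 replicate 2 alone.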

How the data were processed

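Of 9 samples, the 8 H3K9me3 Cut&Run libraries each have 1 deposited list of domains, called per library, and the 1 input sample is not used here on its own. SICER, deepTools, DESeq2 and DiffBind 3.0.15 are named with no role in the submitters' processing notes, as are GRCh38 and hg38. Which aligner was used is not given here. The deposited lists give the counts of H3K9me3 and input reads per domain, the authors' p-value and its version corrected for false discovery. They also give the authors' log2 enrichment over input and a deposited score of 100 times that log2. Domains fall on 1000 bp steps, the smallest gap in every list is 4 kb, and input reads are shared. Counts exist only inside a library's own domains, so no count model was run.

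Covered percent was computed as the bases of a gene body inside domains, with gene positions from RefSeq (GRCh38.p14), which has no exons here. Genes with a mean of at least 5% were tested in R 4.3.3 by limma 3.58.1, where clone was a random block. Adjustment followed Benjamini-Hochberg at 0.05, and the code was tested on simulated data. Replicates share a clone, and limma p-values rest on the variation among these libraries, with a single within-clone correlation of 0.366 for all genes. The chi-square p-values rest on counting error alone. A counting SE takes reads as independent and covers counting error only. Named are the 3 genes, all protein-coding genes of the window, up to 6 tested genes per list, and the 5 nearest genes to TSPAN8 and PTPRR. None are named for LGR5, whose values are all 0, and noncoding genes in the span were added after their values were seen. The members and lists were chosen with earlier results of these data known. Alternatives were other cuts of the lists, joined or long domains, flanks, filters, blocks and leaving out each library. Other tools were matplotlib 3.10.9, scipy 1.17.1, pandas 2.3.3 and numpy 2.4.6 under Python 3.11.15.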

Additional observations from a re-analysis of the deposited data

Results flagged for a closer look

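TSPAN8 was covered over 82.1% in LmnB1_16 replicate 2, apart from the other LmnB1 libraries, which all stood at 100%. Between PTPRR and TSPAN8, mCherry_4 replicate 1 had 29.0 kb in domains and the other mCherry libraries had 0. Both were marked because the gap to the nearest library made up the whole range of the group of 4. Of the groups of 4 compared in this way, 14 had values that were not all equal. Chance marks about 1 group in 20 where values vary freely. In both marked groups the other libraries were tied, at 100% or at 0, so any differing value would be marked and that rate does not apply. In mCherry_4 replicate 1 the depth relative to input was 0.421, the lowest of all libraries, and its part in the result was not tested.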

How the results depend on the processing

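The LGR5 difference was 0 in all 14 alternatives. The TSPAN8 difference of 95.5 points fell to 50 when lists were cut to equal covered length or to their highest-scoring 50%, where LmnB1_16 has no domain over it. It was 85.1 with 5 kb added on both sides, which takes in the gap below the gene and part of the mCherry_4 replicate 1 domain from 71160001. Within 5 kb of the first base, which takes in part of the same mCherry domain, the TSPAN8 difference was 92.5. With 1 library left out it ran from 94.0 to 100. For PTPRR it ran from 7.40 (without LmnB1_6 replicate 2) to 20.1 with 1 library left out, was 4.4 in the highest-scoring 50%, where LmnB1_6 replicate 2 has no domain over it, and was 50 within 5 kb of the gene's first base, which only LmnB1_6 covers. The window difference of 505 kb was 145 in the highest-scoring 50% and 209 at equal covered length. Genes called higher ran from 5 to 57 with 1 library left out (57 without LmnB1_6 replicate 2, 9 without either mCherry_3 replicate) and genes called lower from 2 to 8 (4 without LmnB1_16 replicate 1, 8 without mCherry_4 replicate 2), and 1 was lower in the highest-scoring 50%. Genes with groups apart numbered 24 higher in the highest-scoring 50% and 22 lower at equal covered length, and with 1 library left out ran from 63 to 225 higher (225 without LmnB1_6 replicate 2) and from 8 to 37 lower (37 without mCherry_4 replicate 2, 23 and 17 without replicate 1 of LmnB1_16 and LmnB1_6, 16 without mCherry_4 replicate 1). Within 1 kb, 1 border was shared by all 4 LmnB1 libraries. Where no value is given for it, the cause was not tested. With a replicate block 5 genes were called higher and 2 lower, as without it, and the numbers mark no shared batch in the labels (correlations of same-numbered deviations from -0.0245 to 0.0987). Averaging the mCherry_3 pair was chosen after seeing the data and gave 490 kb for the window. The window around the first base was not run for LGR5.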

Other observations

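Both LmnB1_16 libraries listed a domain inside RAB21, a small GTPase gene of endosomal traffic, of 4 kb in replicate 1 (chr12:71759001-71763000, log2 enrichment 1.43, SE 0.28) and 9 kb in replicate 2 (0.80, SE 0.20), and no other library did. Both also listed a domain between KCNMB4 and PTPRB, of 5 kb (chr12:70462001-70467000) and 3 kb (chr12:70463001-70466000), at log2 enrichments of 1.46 and 1.73. The latter ranked 229 of 7127 in its list, with 80 H3K9me3 and 24 input reads. Near chr12:70151001-70160000 both LmnB1_16 libraries and LmnB1_6 replicate 1 listed a domain, at log2 enrichments of 1.00, 0.82 and 0.64, and no mCherry library did. These 3 places were chosen after their values were seen.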
